A study of Mus musculus with 18 samples.

Results

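The comparison described here is of liver RNA from mice on the HF diet against mice on the LF diet, neither with a further intervention. It rests on 3 HF and 3 LF libraries, 6 of the 18 libraries of the series, chosen by their titles alone. The other 12 libraries belong to groups that combine each diet with CR or Ex (LF+CR, HF+CR, LF+Ex and HF+Ex, 3 libraries each). They enter as a shared estimate of the spread and as a place to look at the same genes again. All 18 came from wild-type mice of the C57BL/6J strain whose treatment began at 5 weeks and whose liver was taken at 62 weeks. The labels abbreviate the treatments. LF and HF are taken to stand for low-fat and high-fat diet, CR for caloric restriction and Ex for exercise. The labels state neither the composition of the diets, nor the sex of the mice, nor that a library is 1 animal, and p-values can then speak for no more than the variation among these libraries. Of 23532 genes in the table, 10356 reached 1 RPKM (a read density that allows for transcript length and sequencing depth) in at least 3 of the 18 libraries and were tested.

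A liver kept on a fat-rich diet takes up and stores fatty acids in lipid droplets, and hepatocytes adjust lipid synthesis, oxidation and export through the nuclear receptors PPAR alpha, PPAR gamma and LXR and the SREBP factors. Lipid-loaded liver is known to gather monocyte-derived macrophages beside its resident Kupffer cells, to show interferon and acute-phase responses and, in time, to activate the stellate cells that lay down collagen. Many cytochrome P450 genes of mouse liver also differ between males and females, under the control of the pulse pattern of growth hormone.

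The files hold RPKM and no counts. Steps among the lowest values put the depth at an estimated 23.7 to 33.9 M reads in the LF libraries and 24.3 to 31.3 M in the HF libraries. Across genes, the HF libraries correlated with each other at 0.980 to 0.986, the LF libraries at 0.966 to 0.979, and libraries of the 2 groups at 0.963 to 0.975. Hepatocyte transcripts were as the tissue label says, with Apoa1 at 6013 to 9302 RPKM and Ttr at 4648 to 5279 RPKM over the 6 libraries. Alb was listed at 0 in 5 of them and at 30395 RPKM in HF 1, so an exact 0 of an abundant gene in this table cannot be read as absence. HF 1 also had the largest RPKM sum of the 18 libraries (589042), and the part of Alb in the other values of HF 1 was not tested. Xist was at most 0.00406 RPKM and Ddx3y at 5.95 to 9.57 RPKM in these libraries. LF 2 held more bile duct marker RNA than the others, with Epcam at 3.35 RPKM against 0.2502 to 0.406 RPKM, and LF 3 was the lowest library for most immune lists. Values are given below in the order of replicates 1, 2 and 3 of a group. Differences are of log2(RPKM + 1), HF minus LF, ± SE from limma, and they understate the fold change of genes near or under 1 RPKM.

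In liver on the HF diet, the genes that rose most were the female-biased cytochrome P450 gene Cyp2b13, Orm3, an acute-phase orosomucoid, the interferon-induced chemokine Cxcl9, the eosinophil-associated ribonuclease Ear2 and the interferon-induced GTPase Tgtp1. Those that fell most were Cyp4a12b, a male-biased cytochrome P450, and Srd5a1, the steroid 5-alpha reductase. In all, limma called 42 of the 10356 genes (0.406%), at a threshold of 0.05 on the p adjusted by Benjamini and Hochberg's method. Of these, 27 were higher in HF (0.261%) and 15 lower (0.145%). At an unadjusted p under 0.05 there were 1742 genes (16.8%), 818 higher (7.9%) and 924 lower (8.92%). In each of the 42 called genes the 3 HF libraries lay wholly on 1 side of the 3 LF libraries. Over all genes tested, the HF libraries lay wholly above the LF libraries for 7.97% of genes and wholly below for 10.9%, and 46.8% of the differences were above 0. These are the shares to set beside every count of a gene list below. The count of called genes depended on single libraries. It was 0 without LF 1 (1425 at an unadjusted p under 0.05) and 10, 4 and 8 without HF 1, HF 2 and HF 3. Without LF 2 it was 30 (28 higher, 2 lower), with 14 of the 42 among them, and without LF 3 it was 40 (21 higher, 19 lower), with 21 of the 42 among them. Without a library of the other groups it was 26, 16 and 25 (LF+CR 1, 2 and 3), 44, 24 and 91 (LF+Ex), 26, 21 and 79 (HF+CR) and 37, 27 and 15 (HF+Ex). It was 140 (125 higher, 15 lower) without LF 2 and HF+CR 3, the libraries highest in bile duct markers, and 11 without HF+CR 1, LF+CR 1 and LF+Ex 1, which held pancreatic enzyme RNA. With median-of-ratios scaling 203 genes were called, 108 of them higher (53.2%), and with quantile normalization 283, 128 of them higher (45.2%), beside 64.3% higher in the unscaled fit. With the 6 HF and LF libraries alone 0 genes were called, and 1286 had an unadjusted p under 0.05. Cyp2b13 and Ear2 each stayed called in 17 of the 18 fits that left out 1 library.

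**Figure D1:**
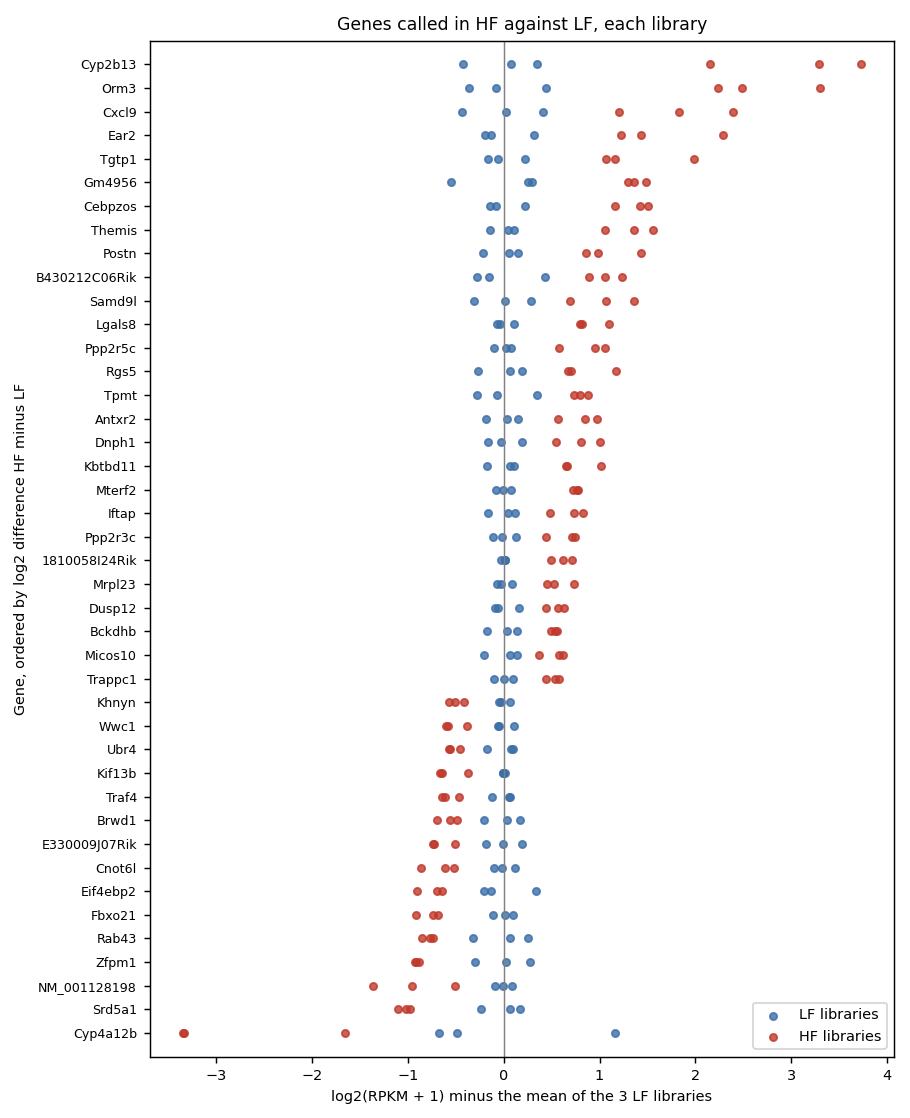
Each of the 42 called genes is a row, and each point is 1 library, as log2(RPKM + 1) minus the mean of the 3 LF libraries (LF blue, HF red). In no row do the 2 groups overlap, and the spread among HF libraries is widest for Cyp4a12b, Cyp2b13, Cxcl9 and Ear2.

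Interferon-response genes made up 3 of the 27 genes that rose, out of 38 tested on that list. Over all genes 27 of 10356 were called higher (0.261%). Cxcl9, the chemokine that draws T cells through CXCR3, was at 2.83, 1.94 and 1.12 RPKM in the LF libraries and at 9.26, 14.1 and 5.62 RPKM in the HF libraries. Every HF library was above every LF library, and Cxcl9 rose by 1.81 ± 0.35 (adjusted p = 0.0405). Tgtp1, a GTPase of the family that attacks the vacuoles of intracellular parasites, was at 0.0733, 0.3095 and 0 RPKM in LF and 1.504, 3.42 and 1.34 RPKM in HF. It rose by 1.401 ± 0.27 (adjusted p = 0.0382), and its reads can be shared with its near-identical neighbour Tgtp2. Tgtp1 reached 1 RPKM in no library outside HF and HF+Ex, so it passed the expression filter only through groups where it is high. Samd9l, an interferon-induced inhibitor of virus replication, was at 1.99, 2.61 and 1.39 RPKM in LF and 3.78, 6.59 and 5.17 RPKM in HF and rose by 1.04 ± 0.21 (adjusted p = 0.0484). HF 2 was the highest of the HF libraries for all 3 genes, and the groups did not overlap.

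The promoters of Cxcl9 and Tgtp1, and of the class II genes H2-Aa and H2-Eb1 described further on, are shown as chosen examples. Each has a match to at least 1 of the motifs searched, which are defined below. Among them only Tgtp1 matched an interferon motif, and H2-Eb1 matched the Y box alone. The promoter of Samd9l is not shown. Each is the 150 bases before the start of the gene in RefSeq on GRCm38.p6, written 5′ to 3′ on the strand of the gene, with motif matches in capitals. Cxcl9 lies at chr5:92328080-92328229 on the minus strand, Tgtp1 at chr11:48992247-48992396 on the minus strand, H2-Aa at chr17:34287824-34287973 on the minus strand and H2-Eb1 at chr17:34305717-34305866 on the plus strand.
Cxcl9: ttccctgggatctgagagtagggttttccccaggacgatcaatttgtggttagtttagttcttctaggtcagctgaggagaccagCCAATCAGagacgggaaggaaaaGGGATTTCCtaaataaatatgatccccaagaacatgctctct
Tgtp1: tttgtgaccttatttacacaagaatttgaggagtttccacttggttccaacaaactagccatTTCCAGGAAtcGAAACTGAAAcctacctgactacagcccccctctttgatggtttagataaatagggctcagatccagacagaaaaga
H2-Aa: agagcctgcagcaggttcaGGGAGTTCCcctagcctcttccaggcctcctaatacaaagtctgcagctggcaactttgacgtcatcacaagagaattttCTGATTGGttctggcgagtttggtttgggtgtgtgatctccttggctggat
H2-Eb1: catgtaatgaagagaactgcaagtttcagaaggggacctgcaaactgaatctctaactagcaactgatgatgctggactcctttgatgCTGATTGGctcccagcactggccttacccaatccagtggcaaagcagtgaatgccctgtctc

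The 4 motifs were searched on both strands in the 250 bases before each start: the interferon-stimulated response element as GAAA and GAAA with any 2 bases between them, the gamma-activated site as TTCNNNGAA, the NF-kappa-B site as GGGANTTCC and the class II Y box as CTGATTGG. The last holds the inverted CCAAT box of many unrelated promoters. In the Cxcl9 promoter the capitals mark a Y box on the opposite strand (-65 to -58 from the start) and an NF-kappa-B site (-42 to -34). In Tgtp1 they mark a gamma-activated site (-88 to -80) and an interferon-stimulated response element (-77 to -68). In H2-Aa they mark an NF-kappa-B site (-131 to -123) and a Y box (-51 to -44), and in H2-Eb1 a Y box (-62 to -55). None of these matches overlaps another. Of 32851 mouse promoters in the table, 2.98% held the response element, 7.02% the gamma-activated site, 1.43% the NF-kappa-B site and 3.83% the Y box. Among the 38 tested interferon-response genes 28 had a promoter entry, and 16 of these held the response element. Of the 42 called genes 34 had an entry, and 1 held the response element, Tgtp1. A match describes the letters of the window and shows no binding.

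The rest of the interferon-response list gave no further call. Of its 42 genes 38 were tested, 3 were called, all higher, and 14 had all HF libraries above all LF libraries against 1 with all below. The counts of 14 and 1 are 36.8% and 2.63%, beside 7.97% and 10.9% of all genes. The median difference of the 38 was 0.55, beside -0.02 over all genes tested, and 35 of the 38 differences were above 0. Of the 38, 2 reached 1 RPKM in under 3 libraries outside HF and HF+Ex, and the median of the rest was 0.55. Ifi47, another interferon-induced GTPase, was at 2.74, 6.92 and 1.59 RPKM in LF and 10.6, 13.8 and 8.201 RPKM in HF, a difference of 1.45 ± 0.33 that missed the threshold (adjusted p = 0.0594). The following were named after their values were seen, for having groups that do not overlap. Gbp2, a guanylate-binding protein, was at 1.93, 2.91 and 0.9903 RPKM in LF and 5.05, 10.4 and 4.13 RPKM in HF (adjusted p = 0.0594). Ifit3, which helps to block viral RNA, was at 3.58, 4.79 and 1.98 and 7.83, 10.6 and 7.62 RPKM (adjusted p = 0.0594), and Irgm1, a regulator of autophagy and GTPases, at 13.8, 17.02 and 11.5 and 19.9, 31.02 and 23.4 RPKM (adjusted p = 0.0945). The gene with all HF libraries below all LF libraries was Bst2, the virus tether tetherin, at 340.5, 424 and 237 RPKM in LF and 210.5, 221 and 138 RPKM in HF (adjusted p = 0.178). The mean log2 level of the 38 genes, centred on all 18 libraries, was -0.14, 0.28 and -0.49 in LF and 0.38, 0.78 and 0.28 in HF, so LF 2 lay level with HF 3. The median of the list was 0.339 without LF 3. Of 42 lists with a median in HF against LF, 23 changed sign in at least 1 alternative, none of them with a median over 0.246 in size, so a small median given here for a list is no direction.

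Genes that show peptides to T cells gave no call. Of 14 tested class I genes, which present peptides from inside the cell, 3 had HF wholly above LF (21.4%, beside 7.97% of all genes), with a median of 0.34. Psmb9, a subunit of the immunoproteasome, was at 17.4, 11.3 and 11.2 RPKM in LF and 35.1, 47.9 and 17.5 RPKM in HF (1.19 ± 0.32, adjusted p = 0.0945). Tap1, which carries peptides into the endoplasmic reticulum, was at 7.74, 6.899 and 6.33 and 12.7, 13.5 and 9.48 RPKM (0.68 ± 0.18, adjusted p = 0.0895). B2m, the shared light chain of class I molecules, was at 1579.7, 2136 and 1698 and 2229.6, 2675 and 2178 RPKM (0.39 ± 0.14, adjusted p = 0.169). In these 3 genes every HF library exceeded every LF library. All 7 tested class II genes, which belong to macrophages, dendritic cells and B cells, had a difference above 0, with a median of 1.12 (0.555 without LF 3). H2-Eb1, a class II beta chain, was at 16.1, 26.7 and 5.003 RPKM in LF and 40.2, 58.2 and 27.1 RPKM in HF (1.53 ± 0.47, adjusted p = 0.129) and was the class II gene whose groups did not overlap. H2-Aa, an alpha chain, was at 32.1, 53.6 and 10.99 and 69.7, 114 and 51.5 RPKM (1.43 ± 0.48, adjusted p = 0.155), and Cd74, the invariant chain, at 60.4, 85.4 and 17.4 and 107, 153 and 72.98 RPKM (1.22 ± 0.46, adjusted p = 0.2002). LF 3 was the lowest library and HF 2 the highest for H2-Eb1, H2-Aa and Cd74, and LF 2 overlapped HF 3 in H2-Aa and Cd74. Reads of similar class II chains can be split between them in an uncertain way.

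**Figure D2:**
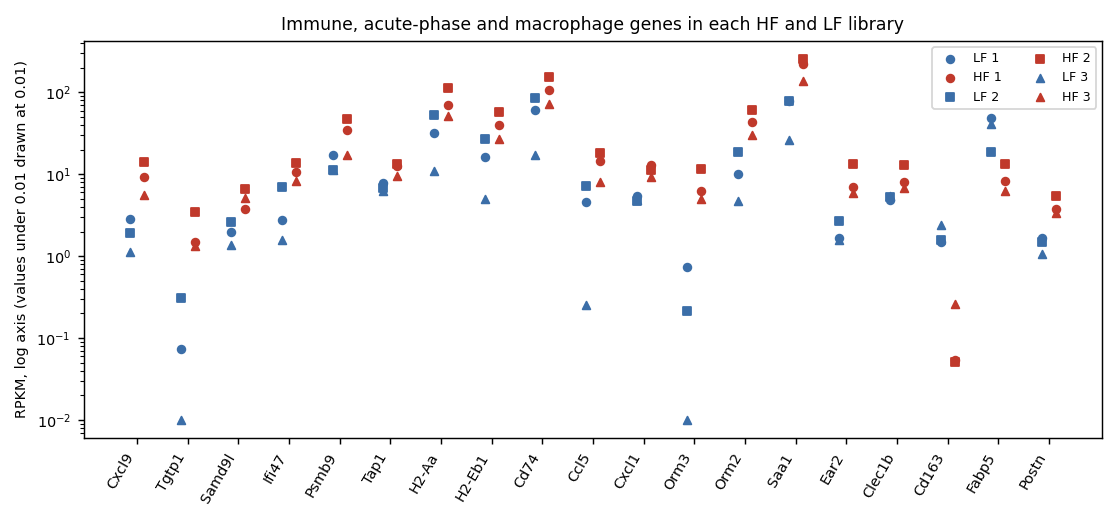
RPKM on a log axis of 19 immune, acute-phase and macrophage genes in each LF (blue) and HF (red) library, with the marker shape giving the replicate number and values under 0.01 RPKM drawn at 0.01. The 19 genes are a chosen set. Red points lie above blue ones for most of them, HF 2 is often the highest, and Cd163 and Fabp5 are the 2 genes drawn with red below blue. Not drawn are, among others, Bst2, C3, Fga and Fgb, with HF wholly below LF, and Gpnmb, Trem2, Lcn2 and Adgre1, which overlapped.

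Acute-phase proteins, which hepatocytes release into plasma during inflammation, gave 1 call among 31 tested genes. Orm3 (chromosome 4, 63356069 to 63359506, GRCm38.p6) was at 0.739, 0.213 and 0 RPKM in LF and 6.201, 11.6 and 5.04 RPKM in HF and rose by 2.67 ± 0.41 (adjusted p = 0.0192). Orm2, its neighbour in the same cluster and one that may share reads with it, was at 9.98, 18.7 and 4.73 and 43.5, 61.5 and 30.5 RPKM (2.05 ± 0.60, adjusted p = 0.117). Saa1, the serum amyloid A that climbs steeply in an acute response, was at 78.5, 77.8 and 26.1 RPKM in LF and 222, 257 and 137 RPKM in HF (1.85 ± 0.60, adjusted p = 0.145). Steap4, a metalloreductase, was at 30.9, 39.1 and 35.5 and 52.7, 66.7 and 44.2 RPKM (0.60 ± 0.19, adjusted p = 0.133). In Orm2, Saa1 and Steap4, all without a call, every HF library was above every LF library. On this list 6 genes had HF wholly above LF and 3 wholly below, and the median was 0.23. These counts are 19.4% and 9.68%, beside 7.97% and 10.9% of all genes. The 3 below were C3, Fga and Fgb, plasma proteins of complement and clotting. C3, at 1971, 2533 and 1679 RPKM in LF and 1325, 1535 and 1330.2 RPKM in HF, differed by -0.54 ± 0.15 (adjusted p = 0.0985). Lcn2, an iron-siderophore binder, overlapped between the groups at 16.5, 42.7 and 2.52 and 69.6, 95.4 and 29.5 RPKM (adjusted p = 0.333).

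The list of cytokines, chemokines and their receptors, which leaves Cxcl9 to the interferon list, held no call among 15 tested genes, with a median of 0.35 (0.63 without LF 2). Of the 15, 3 reached 1 RPKM in under 3 libraries outside HF and HF+Ex, and the median of the rest was 0.29. Cxcl1, which attracts neutrophils, was at 5.43, 4.73 and 4.89 RPKM in LF and 12.9, 11.4 and 9.34 RPKM in HF (1.01 ± 0.30, adjusted p = 0.121). Ccl5, which attracts T cells, was at 4.63, 7.28 and 0.251 and 14.5, 18.1 and 7.96 RPKM (adjusted p = 0.239), and Ccl2, which attracts monocytes, at 0, 2.64 and 0 and 1.42, 4.97 and 1.37 RPKM (adjusted p = 0.263). The groups did not overlap for Cxcl1 and Ccl5, and overlapped for Ccl2. Genes for Tnf and Il6 were below the expression filter.

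Macrophage markers gave 1 call. Of 14 tested markers of recruited macrophages and monocytes it was Ear2, 12 of the 14 differences were above 0, and the median of the list was 0.59. That median was 0.0933 without LF 3 and 1.05 without LF 2. Of the 14 markers 4 reached 1 RPKM in under 3 libraries outside HF and HF+Ex, so they passed the expression filter through these groups. The median of the other markers was 0.53, and the count of differences above 0 is not independent of the filter. Ear2 (chromosome 14, 44102654 to 44103531) was at 1.68, 2.66 and 1.57 RPKM in LF and 6.92, 13.3 and 5.84 RPKM in HF and rose by 1.65 ± 0.24 (adjusted p = 0.0192), with no overlap. It belongs to a family of near-identical ribonuclease genes whose reads can be shared. Ear1, Siglecf, Prg2 and Epx, from a list of dendritic cell and granulocyte markers, were listed at 0 RPKM in all 6 HF and LF libraries. That list had 2 tested genes and no call. Mmp12, a macrophage elastase, was at 0.495, 1.46 and 0.0499 RPKM in LF and 1.63, 4.64 and 2.17 RPKM in HF, without overlap and without a call (1.204 ± 0.51, adjusted p = 0.244). Outside HF and HF+Ex it reached 1 RPKM only in LF 2 and HF+CR 3, so it is 1 of these 4 markers. Markers of lipid-associated macrophages overlapped between the groups: Gpnmb, a membrane glycoprotein, was at 0.8802, 4.26 and 0 and 2.48, 3.76 and 1.43 RPKM, and Trem2, a lipid receptor, at 2.07, 5.24 and 0.44005 and 4.52, 4.96 and 1.901 RPKM (adjusted p = 0.729 and 0.684). Fabp5, a fatty acid binding protein also made by hepatocytes, had HF wholly below LF, at 8.18, 13.2 and 6.34 against 48.1, 18.8 and 41.02 RPKM (adjusted p = 0.112). Summed over its 19 genes in the table, this list ran from 118 to 399 RPKM in LF and from 168 to 315 RPKM in HF. In whole liver, fewer cells of a type and less RNA per cell cannot be told apart.

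Kupffer cell markers gave no call among 12 tested genes, and the median was 0.25. It was -0.0403 without HF 2 and near 0 without LF 3. Clec1b, a lectin receptor, was at 4.91, 5.35 and 5.42 RPKM in LF and 8.04, 13.1 and 6.78 RPKM in HF (0.68 ± 0.19, adjusted p = 0.105). Cd163, the scavenger receptor for haemoglobin, was at 1.47, 1.57 and 2.41 RPKM in LF and 0.054001, 0.0513 and 0.264 RPKM in HF, a difference of -1.32 ± 0.36 (adjusted p = 0.0958). The groups did not overlap for either gene, and the 2 differed in opposite directions. Cd163 was at 2.05, 1.82 and 2.05 RPKM in LF+Ex and 0.0303, 0.919 and 0.00871 RPKM in HF+Ex, again with HF below, and at 2.32, 1.04 and 2.93 and 2.54, 1.79 and 0.117 RPKM in LF+CR and HF+CR, where the groups overlapped. Adgre1, the macrophage marker F4/80, was at 4.92, 6.13 and 3.27 and 6.08, 11.7 and 5.55 RPKM (adjusted p = 0.296). Summed over the list, Kupffer cell markers ran from 142 to 252 RPKM in LF and from 180 to 380 RPKM in HF. How far the cell make-up of the libraries takes part in the immune values was not tested.

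T and NK cell genes were near the floor. Themis, needed for the selection of T cells in the thymus, was at 0.199, 0.149 and 0.0101 RPKM in LF and 1.32, 2.27 and 1.87 RPKM in HF and rose by 1.32 ± 0.20 (adjusted p = 0.0192). The T cell receptor subunit Cd3e was at 0 to 0.166 RPKM in the same 6 libraries, below Themis in every HF library. Of 18 T and NK cell markers only 2 passed the expression filter and neither was called. Summed, these markers ran from 0.632 to 7.24 RPKM in LF and from 3.41 to 6.58 RPKM in HF. Of 12 B and plasma cell markers 4 were tested and none was called. Their sum ran from 45.9 to 61.9 RPKM in LF and from 39.5 to 53.1 RPKM in HF, and without Sdc1, a syndecan that hepatocytes also make, from 1.17 to 5.38 and from 3.33 to 9.22 RPKM. Themis reached 1 RPKM in no library outside HF and HF+Ex, and so did 3 other genes that rose, Tgtp1, B430212C06Rik and Kbtbd11. These 4 passed the expression filter only through the groups where they are high, so their differences in HF against LF and in HF+Ex against LF+Ex are not independent of the filter.

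Genes of stellate cells, matrix and vessel walls gave few calls. Postn, the matrix protein periostin (chromosome 3, 54359267 to 54391041), was at 1.67, 1.505 and 1.08 RPKM in LF and 3.74, 5.49 and 3.36 RPKM in HF and rose by 1.09 ± 0.17 (adjusted p = 0.0196). It was the 1 called gene of 34 tested in the stellate cell and matrix list, whose median was 0.12 (-0.161 without LF 3). Of the 34, 4 reached 1 RPKM in under 3 libraries outside HF and HF+Ex, and the median of the rest was 0.13. Col1a1, the main fibrillar collagen, overlapped between the groups at 1.36, 3.12 and 0.3199 and 2.82, 4.37 and 1.81 RPKM (adjusted p = 0.562), and Lrat, the retinyl ester enzyme of stellate cells, at 2.905, 3.54 and 2.45 and 4.36, 4.37 and 3.41 RPKM (adjusted p = 0.183). Rgs5, a G-protein regulator known from pericytes, was at 4.37, 4.85 and 3.26 RPKM in LF and 7.35, 10.5 and 7.16 RPKM in HF and rose by 0.85 ± 0.17 (adjusted p = 0.0455). Antxr2, the anthrax toxin receptor that binds collagen, was at 4.22, 3.81 and 3.15 and 5.95, 8.27 and 7.47 RPKM and rose by 0.80 ± 0.14 (adjusted p = 0.0329). All HF libraries were above all LF libraries in Postn, Rgs5 and Antxr2. Liver endothelial markers gave no call. Of 18 tested 2 had HF wholly below LF (11.1%, beside 10.9% of all genes). Of the 18 differences 1 was above 0, beside 46.8% over all genes, and the median was -0.18. Kdr, the VEGF receptor, was at 8.83, 8.82 and 8.14 RPKM in LF and 5.34, 6.95 and 6.66 RPKM in HF (adjusted p = 0.189). The 1 difference above 0 was that of Lyve1, a hyaluronan receptor, which overlapped at 2.17, 0.5098 and 0.599 and 2.11, 5.22 and 3.13 RPKM and had the smallest adjusted p of the list (1.13 ± 0.31, adjusted p = 0.0985).

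Among sex-biased genes 3 were called. Cyp2b13 (chromosome 7, 26061388 to 26096197) was at 0.481, 0.785 and 0.0478 RPKM in LF and 5.24, 17.5 and 12.8 RPKM in HF, and it rose by 3.06 ± 0.40 (adjusted p = 0.01396). It reached 1 RPKM only in HF, HF+Ex and LF+CR libraries, so it passed the expression filter only through groups where it is high. Its close relative Cyp2b9, also more abundant in females and open to shared reads, overlapped at 85.2, 66.2 and 57.8 and 47.8, 147 and 128 RPKM (adjusted p = 0.784). Srd5a1, which reduces testosterone and other steroids (chromosome 13, 69573449 to 69611485), was at 26.5, 32.98 and 35.4 RPKM in LF and 15.03, 15.5 and 14.05 RPKM in HF and fell, with a difference of -1.03 ± 0.19 (adjusted p = 0.0354). The 3 HF libraries were close to each other and all below the lowest LF library. Cyp4a12b, a fatty acid hydroxylase of male liver (chromosome 4, 115411624 to 115439034), was at 9.25, 31.1 and 8.04 RPKM in LF and 3.58, 0.421 and 0.422 RPKM in HF and fell, with a difference of -2.78 ± 0.55 (adjusted p = 0.0455). LF 2 was far above the other LF libraries, and HF 1 above the other HF libraries. Its near-identical neighbour Cyp4a12a was at 58.1, 112 and 39.6 and 23.97, 15.2 and 31.3 RPKM, also without overlap but not called (adjusted p = 0.193).

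Of 40 tested male-biased genes 2 were called, both lower, 7 had HF wholly below LF and none wholly above, and the median was -0.18 (-0.0531 without HF 2 and -0.512 without HF 1). The 7 genes are 17.5%, beside 10.9% of all genes. Slco1a1, an organic anion uptake carrier of male liver, was at 8.69, 4.14 and 40.1 RPKM in LF and 2.79, 0.428 and 0.863 RPKM in HF (-2.56 ± 0.80, adjusted p = 0.131). Mup20, the major urinary protein darcin, overlapped at 4563, 10439 and 9572 and 9608, 5496 and 5251 RPKM. Of 26 female-biased genes 1 was called, Cyp2b13, 2 had HF wholly above LF and 6 wholly below, and the median was -0.06 (0.127 among genes with a mean of at least 5 RPKM). The counts of 2 and 6 are 7.69% and 23.1%, beside 7.97% and 10.9% of all genes. Those with HF wholly below LF included Slc22a26, an organic anion carrier, at 1.21, 2.63 and 1.41 and 0.499, 0.463 and 0.7302 RPKM (adjusted p = 0.132), and Cux2, a repressor found in female liver, at 0.113, 0.462 and 0.0853 and 0.00764, 0 and 0.007403 RPKM (adjusted p = 0.466). Slc22a26 reached 1 RPKM only in LF and LF+CR libraries and Cux2 only in LF+CR libraries, so both passed the expression filter only through groups where they are high. Of 24 genes of the growth hormone, STAT5 and IGF1 axis none was called. Igfbp2, an IGF-binding protein, came nearest, at 299.6, 727 and 356 RPKM in LF and 208, 94.7 and 125 RPKM in HF (-1.65 ± 0.43, adjusted p = 0.08197), with no overlap.

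**Figure D3:**
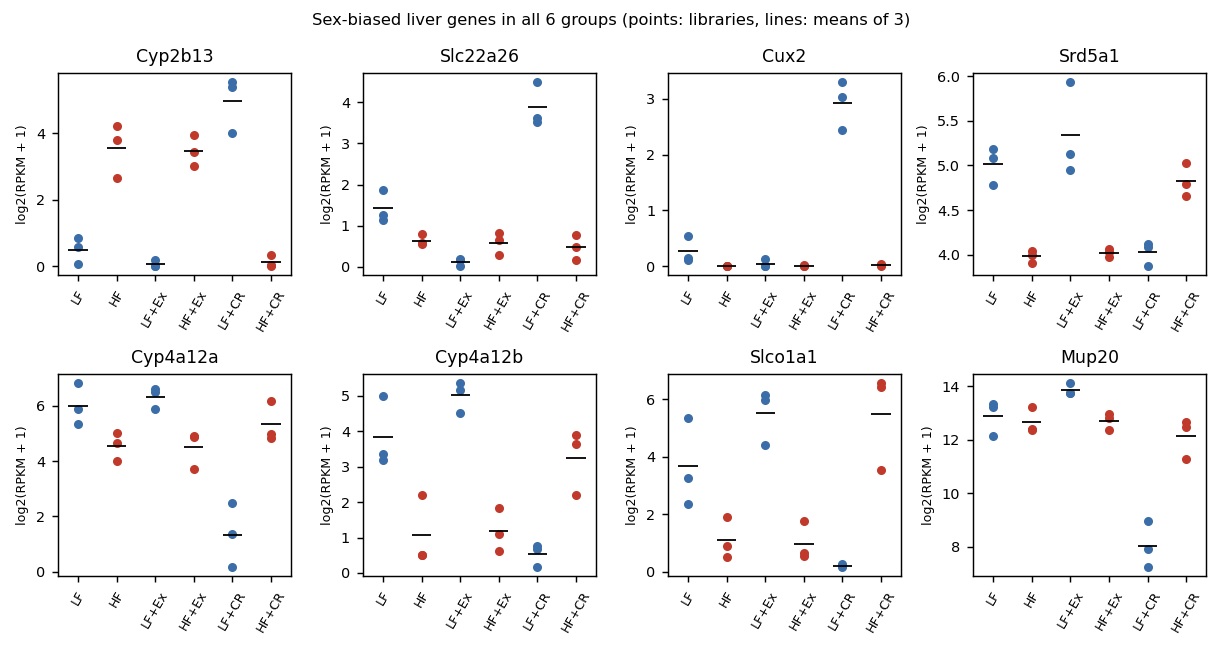
Log2(RPKM + 1) of 8 sex-biased liver genes in all 6 groups (points are libraries, lines are means of 3; LF diets blue, HF diets red). The means of HF against LF and of HF+Ex against LF+Ex differ in the same direction for Cyp2b13, Srd5a1, Cyp4a12a, Cyp4a12b, Slco1a1 and Mup20. For each of these genes the means of HF+CR against LF+CR differ in the opposite direction. The HF and LF libraries of Mup20 overlap.

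The remaining genes that rose are taken by role, mitochondrial proteins and enzymes before others. Bckdhb, the E1 beta subunit of the dehydrogenase for branched-chain keto acids, was at 29.05, 33.9 and 36.4 RPKM in LF and 46.8, 48.4 and 48.8 RPKM in HF and rose by 0.53 ± 0.10 (adjusted p = 0.0329). It was the 1 call among 46 tested genes of amino acid catabolism and the urea cycle, whose median was -0.03. Mrpl23, a protein of the mitochondrial ribosome, was at 43.4, 40.2 and 38.99 and 59.1, 68.8 and 56.2 RPKM and rose by 0.57 ± 0.11 (adjusted p = 0.0354). Micos10, a subunit of the complex that shapes cristae, was at 10.2, 13.3 and 12.5 and 15.8, 18.3 and 18.9 RPKM and rose by 0.52 ± 0.10 (adjusted p = 0.0455). Mterf2, a mitochondrial transcription factor, was low, at 0.591, 0.504 and 0.427 RPKM in LF and 1.48, 1.57 and 1.56 RPKM in HF, and rose by 0.75 ± 0.13 (adjusted p = 0.0295). It reached 1 RPKM in no LF, LF+Ex or LF+CR library, so it passed the expression filter only through groups where it is high. Subunits of oxidative phosphorylation gave no call among 73 genes, with a median of -0.05. Tpmt, which methylates thiopurine drugs, was at 5.56, 4.65 and 7.72 and 10.4, 10.9 and 11.6 RPKM and rose by 0.80 ± 0.14 (adjusted p = 0.0268). Dnph1, a hydrolase of deoxynucleotides, was at 2.37, 3.29 and 2.69 and 5.58, 6.53 and 4.51 RPKM and rose by 0.79 ± 0.13 (adjusted p = 0.0243). In these 6 genes the lowest HF library exceeded the highest LF library.

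Phosphatases and trafficking proteins follow. Ppp2r3c, a regulatory subunit of protein phosphatase 2A, was at 1.596, 2.06 and 1.76 RPKM in LF and 2.81, 3.58 and 3.69 RPKM in HF and rose by 0.63 ± 0.10 (adjusted p = 0.0226). Dusp12, a dual-specificity phosphatase, was at 7.36, 6.19 and 6.05 and 10.1, 10.6 and 9.18 RPKM and rose by 0.54 ± 0.11 (adjusted p = 0.0477). Trappc1, part of a tethering complex for transport vesicles, was at 22.1, 25.3 and 23.7 and 32.6, 35.7 and 34.7 RPKM and rose by 0.52 ± 0.09 (adjusted p = 0.0271). Iftap, named for its link to intraflagellar transport, was at 1.51, 2.07 and 1.903 and 3.98, 3.67 and 2.95 RPKM and rose by 0.68 ± 0.11 (adjusted p = 0.024001). Kbtbd11, a kelch and BTB domain protein, was at 0.233, 0.2697 and 0.0393 and 0.859, 1.37 and 0.84998 RPKM and rose by 0.78 ± 0.15 (adjusted p = 0.0428). Of 3 transcripts in RefSeq's noncoding class that rose, 1810058I24Rik was abundant, at 69.2, 70.8 and 71.1 RPKM in LF and 116, 109 and 99.4 RPKM in HF (0.61 ± 0.11). Gm4956 was at 0.9102, 0.0599 and 0.855 and 2.98, 3.36 and 2.83 RPKM (1.38 ± 0.25) and B430212C06Rik at 0.632, 0 and 0.0899 and 1.85, 1.53 and 1.24 RPKM (1.06 ± 0.19). The adjusted p was 0.0382 for 1810058I24Rik, 0.0329 for Gm4956 and 0.0329 for B430212C06Rik.

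For 9 called genes the table holds more than 1 RefSeq transcript, and the most abundant row over the 18 libraries was used. In several the other rows did not follow it. Cebpzos, a small protein gene named for lying opposite Cebpz, was at 0.842, 0.9203 and 1.36 RPKM in LF and 3.55, 4.45 and 4.74 RPKM in HF in its leading row and rose by 1.36 ± 0.25 (adjusted p = 0.0329). Its other row was at 2.21, 1.999 and 2.797 RPKM in LF and 1.09, 1.45 and 1.301 RPKM in HF, wholly the other way. Since the strandedness of the libraries is not given in the sources used here, reads of Cebpz cannot be told apart from it where the genes overlap. Ppp2r5c, another regulatory subunit of phosphatase 2A, was at 2.21, 2.51 and 2.64 and 5.67, 4.15 and 6.15 RPKM in its leading row and rose by 0.86 ± 0.13 (adjusted p = 0.0192). Another row of Ppp2r5c had a mean of 7.09 RPKM in LF and 3.97 RPKM in HF, and with its 4 rows summed the difference was -0.09, so the call is of 1 isoform estimate. Lgals8, a galectin that marks damaged vesicles, was at 18.8, 16.8 and 16.6 and 30.8, 38.3 and 31.4 RPKM and rose by 0.90 ± 0.18 (adjusted p = 0.0455), while the means of its other row were 23.04 and 23.9 RPKM. Rab43, a GTPase of Golgi transport, was at 44.7, 39.3 and 29.7 and 21.96, 21.5 and 20.3 RPKM in its leading row and fell, with a difference of -0.79 ± 0.16 (adjusted p = 0.0484), while the means of its other row were 19.6 RPKM in LF and 24.5 RPKM in HF. Summed over rows, the differences were 0.58 for Cebpzos, 0.49 for Lgals8 and -0.32 for Rab43, and none was called (adjusted p = 0.0594, 0.12 and 0.167). Micos10 and 1810058I24Rik, given above by their leading rows, are also among the 9. Summed over rows their differences were 0.50 and 0.497, without a call (adjusted p = 0.0594 and 0.0864). The other row of 1810058I24Rik had means of 19.06 RPKM in LF and 18.69 RPKM in HF. Of the 9 genes, Postn was the 1 still called with rows summed.

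Of the 15 genes that fell, those that act in transcription, translation and protein turnover come before the rest. Zfpm1 (FOG1), a cofactor of GATA factors (chromosome 8, 122281856 to 122337862), was at 22.7, 18.9 and 14.9 RPKM in LF and 9.604, 9.37 and 9.32 RPKM in HF and fell, with a difference of -0.91 ± 0.15 (adjusted p = 0.0239). Its 3 HF libraries were nearly equal, and its LF libraries spread more widely above them. Fbxo21, the substrate receptor of an SCF ubiquitin ligase (chromosome 5, 117976770 to 118010198), was at 52.9, 49.9 and 45.5 RPKM in LF and 30.2, 25.7 and 29.2 RPKM in HF, with a difference of -0.78 ± 0.12 (adjusted p = 0.0192). Ubr4, a ubiquitin ligase of the N-degron pathway, was at 19.1, 19.4 and 15.96 and 11.9, 12.97 and 11.9 RPKM (-0.53 ± 0.11, adjusted p = 0.0455). Of 29 tested F-box and cullin genes, Fbxo21 was the 1 call, and the median was -0.01. Eif4ebp2, the translation repressor controlled by mTOR, was at 86.7, 62.5 and 59.1 RPKM in LF and 36.1, 43.4 and 42 RPKM in HF (-0.75 ± 0.15, adjusted p = 0.0484). Cnot6l, a deadenylase subunit of the CCR4-NOT complex that shortens poly(A) tails, was at 5.23, 6.24 and 5.63 and 2.69, 3.39 and 3.66 RPKM (-0.66 ± 0.14, adjusted p = 0.0498), while its lesser row had means of 1.38 and 2.14 RPKM. Khnyn, a cofactor of the antiviral protein ZAP, was at 9.41, 10.2 and 9.56 and 7.05, 6.53 and 6.22 RPKM (-0.50 ± 0.10, adjusted p = 0.0455). HF lay below LF in every library of these 6 genes.

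The rest of the genes that fell include signalling and motor proteins. Wwc1 (KIBRA), a scaffold of the Hippo pathway, was at 26.4, 29.5 and 26.1 RPKM in LF and 17.9, 20.7 and 17.7 RPKM in HF and fell, with a difference of -0.52 ± 0.10 (adjusted p = 0.0382). Kif13b, a kinesin motor, was at 7.62, 7.74 and 7.65 and 4.54, 5.7001 and 4.47 RPKM (-0.56 ± 0.11, adjusted p = 0.0462), and its LF libraries were close together. Traf4, an adaptor of receptor signalling, was at 18.1, 18.2 and 15.98 and 12.3, 10.8 and 11.1 RPKM (-0.57 ± 0.11, adjusted p = 0.0455). Brwd1, a bromodomain protein, was at 1.95, 2.84 and 2.48 and 1.11, 1.43 and 1.32 RPKM (-0.58 ± 0.11, adjusted p = 0.0405), while the means of its 2 other rows were 1.54 and 1.22 RPKM in LF and 1.603 and 1.23 RPKM in HF. E330009J07Rik was at 1.06, 1.66 and 1.31 and 0.645, 0.402 and 0.407 RPKM (-0.66 ± 0.13). A transcript without a symbol in the tables used here, NM_001128198, was at 4.73, 4.37 and 4.07 and 1.77, 2.796 and 1.09 RPKM (-0.94 ± 0.19), with adjusted p = 0.0405 and 0.0479 for the last pair. E330009J07Rik reached 1 RPKM in the LF and LF+CR libraries and in no other. It passed the expression filter only through groups where it is high, so its differences are not independent of the filter.

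Brwd1 was also the 1 call among 57 tested chromatin and DNA methylation enzymes. Of this list 20 genes had HF wholly below LF and 1 wholly above, beside 10.9% and 7.97% of all genes, and the median was -0.19. Ep300, the histone acetyltransferase p300, was at 5.32, 5.57 and 5.37 RPKM in LF and 3.43, 4.29 and 3.35 RPKM in HF (-0.46 ± 0.10, adjusted p = 0.0569). Kat6a, another acetyltransferase, was at 3.87, 3.84 and 3.58 and 2.91, 3.09 and 2.53 RPKM (-0.31 ± 0.09, adjusted p = 0.112), and Kdm5c, a demethylase of histone H3, at 11.3, 11.9 and 10.3 and 8.06, 9.23 and 7.94 RPKM (-0.37 ± 0.11, adjusted p = 0.122). Each of the 3 had every HF library below every LF library. The medians of the list were -0.01 in HF+Ex against LF+Ex and -0.02 in HF+CR against LF+CR, with no call in either. Of 32 genes of microRNA processing and mRNA decay, Cnot6l was called, 5 had HF wholly below LF and none above, and the median was -0.11. The 5 genes are 15.6%, beside 10.9% of all genes. Ago1, an Argonaute protein, was at 4.17, 4.495 and 3.87 and 3.18, 3.66 and 3.21 RPKM (-0.25 ± 0.09, adjusted p = 0.163).

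None of the lists of lipid metabolism held a called gene. Cidea, which helps lipid droplets to grow, was at 26.5, 0.509 and 5.399 RPKM in LF and 44.9, 72.2 and 47.98 RPKM in HF, a difference of 3.09 ± 1.0 (adjusted p = 0.144). Cidec, its relative, was at 38.5, 28.7 and 8.92 and 56.4, 84.4 and 53.1 RPKM (1.503 ± 0.82, adjusted p = 0.368). In both genes every HF library exceeded every LF library, yet the LF libraries spread widely, with Cidea lowest in LF 2 and highest in LF 1. Plin2, the coat protein of hepatocyte droplets, overlapped at 458, 510.4 and 265 and 386, 601 and 524 RPKM (adjusted p = 0.617). Of 20 lipid droplet genes 3 had HF wholly above and 3 wholly below LF, and the median was 0.13. These counts are 15% each, beside 7.97% and 10.9% of all genes. Fabp4, a fatty acid binding protein of fat cells and macrophages, came close to the threshold at 10.02, 10.1 and 9.604 RPKM in LF and 18.9, 37.8 and 18.4 RPKM in HF (1.18 ± 0.25, adjusted p = 0.0536). Cd36, a fatty acid uptake receptor, was at 36.5, 36.4 and 25.6 and 24.5, 50.2 and 40.8 RPKM, and Pparg, the nuclear receptor behind it, at 4.76, 9.38 and 1.97 and 3.64, 4.39 and 1.501 RPKM, both overlapping (adjusted p = 0.8903 and 0.591).

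Of 31 tested genes of fatty acid synthesis 3 had HF wholly above and 3 wholly below LF, with a median of 0.00. These counts are 9.68% each, beside 7.97% and 10.9% of all genes. Fasn, fatty acid synthase, was at 42.6, 14.1 and 24.1 RPKM in LF and 29.2, 46.3 and 28.1 RPKM in HF, and Scd1, the stearoyl desaturase, at 2614, 885 and 2250.5 and 794, 1404 and 1186 RPKM, with overlap in both (adjusted p = 0.678 and 0.571). Thrsp, an early marker of lipid synthesis, was at 155, 10.2 and 165 and 335, 297 and 189 RPKM without overlap (adjusted p = 0.251), and LF 2 was far below the other libraries. LF 2 was also the lowest of the 6 libraries for Fasn and Srebf1. In the cholesterol list 9 of 31 genes had HF wholly above LF and 2 wholly below, with a median of 0.25 and no call. These counts are 29% and 6.45%, beside the same shares of all genes. Msmo1, a sterol oxidase late in cholesterol synthesis, was at 9.71, 5.16 and 10.6 RPKM in LF and 24.2, 26.9 and 39.8 RPKM in HF (1.74 ± 0.39, adjusted p = 0.0592). Idi1, an isomerase early in the pathway, was at 7.79, 3.52 and 8.87 and 13.2, 17.02 and 21.7 RPKM (adjusted p = 0.198), and Mvk, mevalonate kinase, at 4.78, 2.56 and 2.22 and 6.16, 5.79 and 5.36 RPKM (adjusted p = 0.1801). These 3 had no overlap. Soat2, which esterifies cholesterol, was wholly lower at 32.1, 44.6 and 28.8 and 24.004, 23.1 and 22.7 RPKM (adjusted p = 0.175).

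The PPAR alpha list gave no call either. Of its 45 genes, which include those of fatty acid oxidation, 8 had HF wholly below LF and 1 wholly above, with a median of -0.07. These counts are 17.8% and 2.22%, beside 10.9% and 7.97% of all genes. Cyp4a31, a fatty acid omega-hydroxylase, was at 8.92, 12.5 and 6.46 RPKM in LF and 0.246, 2.93 and 0.675 RPKM in HF (-2.31 ± 0.50, adjusted p = 0.0536). Cyp4a14 and Cyp4a10, of the same cluster, were at 1108, 2057 and 882 and 648, 792 and 555 RPKM in LF and at 318, 608 and 708 and 230.2, 364 and 367 RPKM in HF (adjusted p = 0.165 and 0.1796). Acot1, an acyl-CoA thioesterase, was at 63.7, 87.8 and 45.9 and 17.1, 22.2 and 24.8 RPKM (-1.55 ± 0.43, adjusted p = 0.105). HF lay wholly below LF in these 4 genes, whose reads can be shared with close relatives. Cpt1a, the gate of mitochondrial fatty acid entry, overlapped at 231, 191 and 165 and 184, 209 and 183 RPKM (adjusted p = 0.981), as did the hormone gene Fgf21 at 16.9, 39.6 and 5.68 and 6.27, 24.6 and 21.5 RPKM (adjusted p = 0.976). Of genes for lipoprotein assembly, Tm6sf2, needed to load lipid onto VLDL, was at 43.8, 27.6 and 34.6 RPKM in LF and 13.1, 21.2 and 16.2 RPKM in HF (-1.03 ± 0.25, adjusted p = 0.0696). Cyp7a1, the rate-limiting enzyme of bile acid synthesis, overlapped at 27.3, 13.04 and 26.5 and 24.5, 14.99 and 29.5 RPKM (adjusted p = 0.966).

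Genes of glucose metabolism gave 1 call. Of 34 genes of gluconeogenesis and insulin response it was Eif4ebp2, 9 had HF wholly below LF and 1 wholly above, and the median was -0.19. The counts of 9 and 1 are 26.5% and 2.94%, beside 10.9% and 7.97% of all genes. Irs2, the insulin receptor substrate, was at 5.95, 5.88 and 4.13 RPKM in LF and 2.19, 1.84 and 2.102 RPKM in HF (-1.04 ± 0.26, adjusted p = 0.0735). Pck1, which starts gluconeogenesis, was at 1119, 849 and 902 and 629, 561 and 580.2 RPKM (-0.69 ± 0.34, adjusted p = 0.318), while G6pc, which ends it, overlapped at 63.3, 90.8 and 51.9 and 70.3, 74.5 and 71.2 RPKM. Of 37 tested genes of glycolysis, fructose and glycogen 8 had HF wholly above LF and 1 wholly below (21.6% and 2.7%, beside 7.97% and 10.9% of all genes), with a median of 0.02. Agxt2, an aminotransferase, was at 45.96, 38.1 and 42.4 and 69.9, 86.8 and 74.2 RPKM (0.85 ± 0.19, adjusted p = 0.0594), and Bhmt, which remethylates homocysteine, at 877, 189 and 630.1 and 1255, 1646 and 1420.2 RPKM (adjusted p = 0.1199). Cps1, the entry enzyme of the urea cycle, was wholly lower at 461, 486 and 582 RPKM in LF and 283, 303 and 332 RPKM in HF (-0.73 ± 0.19, adjusted p = 0.0763). Hnf4a, the hepatocyte nuclear factor, was at 170.4, 193 and 168 and 112, 133 and 136 RPKM (-0.48 ± 0.12, adjusted p = 0.0777). No gene of this paragraph other than Eif4ebp2 passed the threshold.

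**Figure D4:**
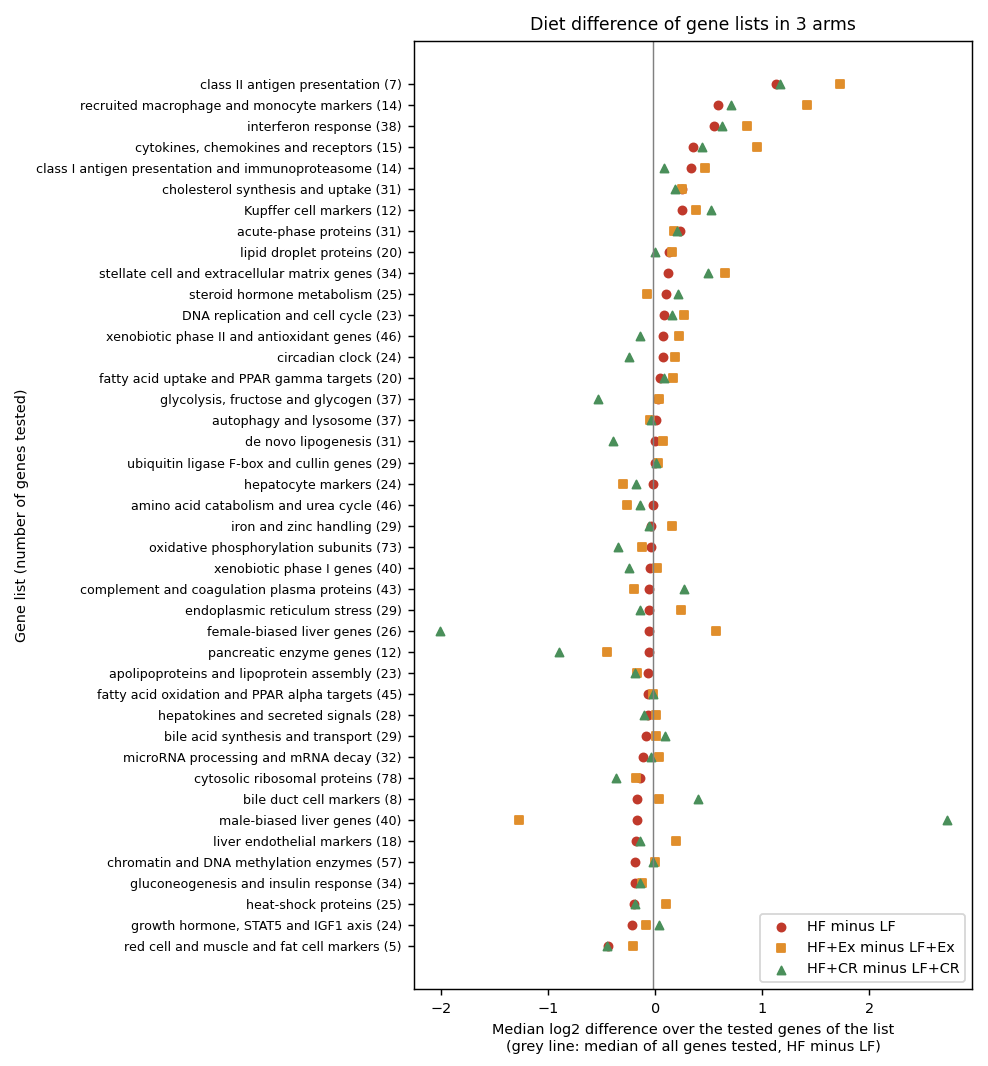
Median log2 difference of each gene list with at least 5 tested members (number tested in brackets) in HF against LF (red circles), HF+Ex against LF+Ex (orange squares) and HF+CR against LF+CR (green triangles). Class II, macrophage and interferon lists lie to the right in all 3, and the sex-biased lists spread farthest apart between the 3 comparisons. In HF against LF the Kupffer cell median changed sign without LF 3 or HF 2, and that of recruited macrophages was 0.0933 without LF 3. In HF+CR against LF+CR the recruited macrophage list had 0 genes called higher and 1 called lower.

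The Ex and CR groups gave a second look at the called genes, in libraries that took part in choosing them through the shared spread, the expression filter and the choice of transcript row. In HF+Ex against LF+Ex, where limma called 533 genes (5.15%), 26 of the 27 genes that rose and 15 of the 15 that fell had a difference of the same sign. Of these 18 and 5 were also called in that direction, and none was called in the other. Without Themis, Tgtp1, B430212C06Rik and Kbtbd11 these counts were 22 of 23 genes that rose with the same sign and 14 called. Mterf2 and Cyp2b13, among the genes that rose, and E330009J07Rik, among those that fell, also passed the filter only through groups where they are high. They are still in these counts. Over all genes 61.5% of differences were above 0 there, with 4.13% called higher and 1.01% called lower. The medians over the 27 and the 15 genes were 0.71 and -0.35, beside 0.85 and -0.66 in HF against LF. Cxcl9 was at 1.24, 1.72 and 3.099 RPKM in LF+Ex and 11.7, 6.77 and 14.1 RPKM in HF+Ex (1.97 ± 0.35, adjusted p = 0.00945). Orm3 was at 0, 0.307 and 1.13 and 17.7, 14.4 and 8.77 RPKM (3.33 ± 0.41, adjusted p = 0.00221), and Ear2 at 1.58, 1.76 and 3.12 and 10.6, 8.98 and 8.13 RPKM (1.72 ± 0.24, adjusted p = 0.00374). The gene whose sign differed was Ppp2r5c, at -0.01 ± 0.13 (adjusted p = 0.967). Of the interferon-response list 21 of 38 genes were called higher in HF+Ex and none lower, with a median of 0.86. Of the class II list 6 of 7 were called higher, with a median of 1.72.

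In HF+CR against LF+CR, where 1013 genes were called (9.78%) and 49.6% of differences were above 0, 22 of the 27 and 12 of the 15 genes had the same sign. Called in the same direction were 5 and 3, beside 4.7% called higher and 5.08% called lower over all genes. Tpmt was at 4.598, 6.06 and 5.24 RPKM in LF+CR and 10.7, 9.98 and 9.49 RPKM in HF+CR (0.82 ± 0.14, adjusted p = 0.002095), and Lgals8 at 9.01, 12.7 and 11.7 and 34.9, 20.9 and 30.3 RPKM (1.27 ± 0.18, adjusted p = 6.15e-04). Tpmt and Mterf2 were the genes called in the same direction in all 3 comparisons. For Mterf2 this is not independent of the expression filter, which it passed only through HF, HF+Ex and HF+CR libraries. E330009J07Rik, among the genes called lower here, passed the filter only through LF and LF+CR libraries. The 5 genes that rose and had the other sign here were Cyp2b13, Postn, Ppp2r5c, Mrpl23 and Bckdhb, and the 3 that fell were Cyp4a12b, Srd5a1 and Fbxo21. Called in the opposite direction were Cyp2b13, Cyp4a12b, Srd5a1 and Fbxo21. Cyp2b13 was at 44.9, 14.96 and 40.7 RPKM in LF+CR and 0.0205, 0.254 and 0 RPKM in HF+CR, the reverse of its order in LF and HF. It passed the expression filter only through HF, HF+Ex and LF+CR libraries, where it is high. Srd5a1 was at 16, 13.6 and 16.4 and 31.5, 26.8 and 24.2 RPKM, Cyp4a12b at 0.121, 0.693 and 0.588 and 11.5, 3.59 and 13.96 RPKM, and Fbxo21 at 25.3, 30.7 and 27.99 and 39.98, 37.3 and 51.02 RPKM. Like Srd5a1, Fbxo21 had higher means in LF, LF+Ex and HF+CR than in HF, HF+Ex and LF+CR, although it is on neither sex-biased list.

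**Figure D5:**
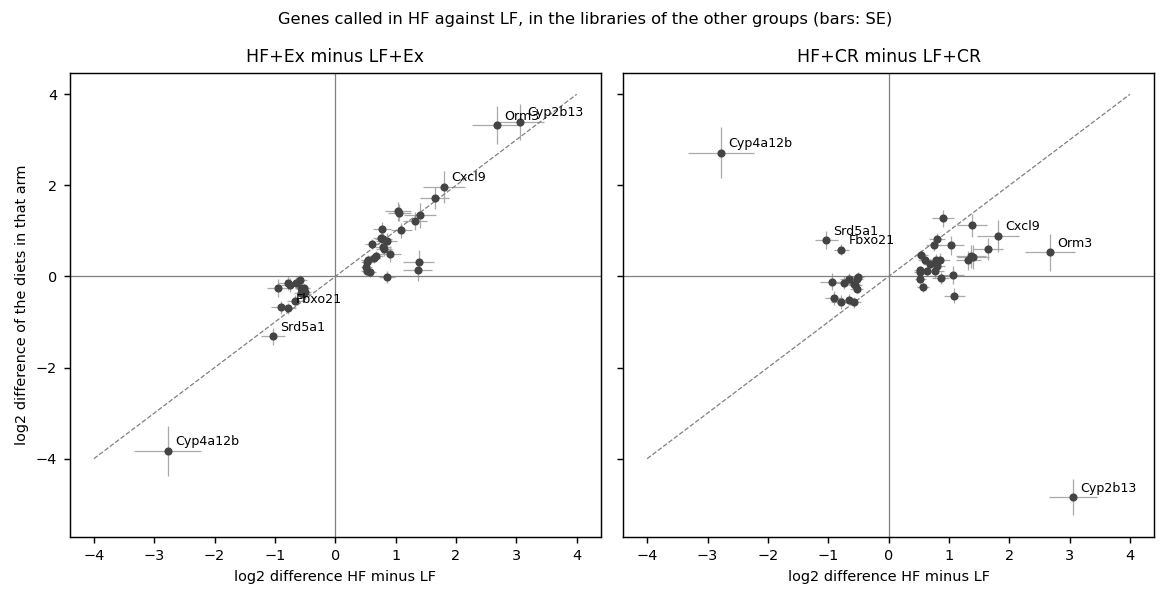
For the 42 called genes, the difference HF minus LF (x axis) against HF+Ex minus LF+Ex (left) and HF+CR minus LF+CR (right), all log2, with SE bars and a dashed line of equality. On the left 41 of 42 points have the same sign on both axes, and on the right Cyp2b13, Cyp4a12b, Srd5a1 and Fbxo21 lie well across the zero line.

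The difference between the diet effects was itself tested as an interaction. Between HF minus LF and HF+Ex minus LF+Ex limma called 0 of 10356 genes (0.0%), with 525 at an unadjusted p under 0.05 (5.07%). For Cyp2b13 the difference of differences was -0.34 ± 0.57 and for Cxcl9 -0.16 ± 0.49. Between HF minus LF and HF+CR minus LF+CR it called 106 genes (1.02%), 46 with the larger value in HF minus LF (0.444%) and 60 with the smaller (0.579%), beside 48.6% above 0 over all genes. Among them were 7 of the 42 genes, and since these were chosen on the HF and LF libraries that the interaction also uses, their interaction is not independent of the choice. Of the male-biased list 16 of 40 genes were called in this interaction, all with the smaller value in HF minus LF, and of the female-biased list 11 of 26, all with the larger. The 11 include Cyp2b13, Cux2 and Slc22a26, which passed the expression filter only through groups where they are high. The lists' medians were -0.18 and -0.06 in HF against LF and 2.73 and -2.02 in HF+CR against LF+CR. The count of 106 ran from 45 without HF+CR 1 to 211 without HF+CR 3.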

How the data were processed

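The samples were 18 liver libraries of polyA RNA in 6 groups of 3, grouped by their titles. The submitters' processing notes name TopHat 1.4.1, Cufflinks 1.3.0 and the genome build mm10. The authors deposited RPKM, 1 value for each RefSeq transcript. The read total behind that scaling and the strandedness are not given in the sources used here. The per-sample and series tables held the same 550476 values. Cufflinks divides reads among isoforms and paralogs, so a row or a close paralog can gain what another loses.

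Gene symbols came from RefSeq (GRCm38.p6) for 30003 of the 30582 rows and from GENCODE for 180, while 399 have no symbol here. This gave 23532 genes, 4218 of them with several rows, of which the most abundant was used. The expression filter was 1 RPKM or more in 3 or more libraries (10356 genes). limma 3.58.1 (R 4.3.3) was fitted to log2(RPKM + 1) with a mean for each of 6 groups, an intensity trend and 12 residual degrees of freedom. Tests were two-sided with Benjamini-Hochberg adjustment over all 10356 genes, and every adjusted p comes from limma. The script was tested on simulated data. Depth was estimated from the step between low values and gives no counting interval.

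The comparison, the gene lists and the genes named were chosen with earlier results of these data known. Named are all called genes, a set of well-known liver genes, up to 4 genes with the smallest p of each list with at least 5 tested members, and those said to be named after their values were seen. Lists are described by counts and medians, without a set test. Same-numbered HF and LF libraries deviated together at r = 0.0835, 0.316 and 0.242, and no different-numbered libraries were set beside them. These values cannot settle whether the numbers mark pairs. The main fit did not take them as pairs, and a replicate block gave 14 calls. Alternatives were another pseudocount (0.1), other filters, 2 scalings, other variance models, the 6 or 12 libraries of a contrast alone, a replicate block, transcripts summed per gene, array weights and leaving out each library. Protein sequences were not used here.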

Additional observations from a re-analysis of the deposited data

Results flagged for a closer look

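The diet difference without intervention differed from that under CR, by an interaction test in limma with adjustment over 10356 genes, for 7 called genes and 9 others named here. The value is (HF minus LF) minus (HF+CR minus LF+CR) on the log2 scale, and it shares the HF and LF libraries with the choice of these genes.

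Among female-biased genes it was 7.90 for Cyp2b13 (adjusted p = 4.3e-06), 2.64 for Cux2 (6.57e-05) and 2.61 for Slc22a26 (0.00307). Cyp2b13 was higher in HF than LF and lower in HF+CR than LF+CR, whereas Cux2 and Slc22a26 had lower means in both, by more under CR. Cux2 reached 1 RPKM only in LF+CR libraries, Slc22a26 only in LF and LF+CR, and Cyp2b13 only in HF, HF+Ex and LF+CR. These genes passed the expression filter only through groups where they are high, so their values here are not independent of the filter. Among male-biased genes it was -5.50 for Cyp4a12b (adjusted p = 0.00307), -5.46 for Cyp4a12a (0.00307), -7.84 for Slco1a1 (0.00307), -4.34 for Mup20 (0.00307) and -1.83 for Srd5a1 (0.00338). All 5 had lower means in HF than LF and higher in HF+CR than LF+CR, and those of Cyp4a12a, Slco1a1 and Mup20 were not called in HF against LF.

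Fbxo21, the F-box gene, was at -1.37 (adjusted p = 0.00226), and the fatty acid hydroxylase Cyp4a32 at -1.38 (0.00387). Postn was at 1.51 (adjusted p = 0.00645), with 1.42 ± 0.307 RPKM in LF, 4.20 ± 1.14 in HF, 2.78 ± 0.659 in LF+CR and 1.81 ± 0.343 in HF+CR (SD, n = 3). Gbe1, the glycogen branching enzyme, was at 1.13 (adjusted p = 0.0199), Mrpl23 at 0.81 (0.0151) and Ppp2r5c, in its leading transcript row, at 0.90 (0.0305). F11, a clotting factor, was at -1.44 (adjusted p = 0.0105) and Ulk2, an autophagy kinase, at -0.9996 (0.0199). Groups of 3 libraries were not tested for single outlying libraries.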

How the results depend on the processing

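The 42 calls of HF against LF became 21 with a pseudocount of 0.1, 14 among genes with a mean of at least 5 RPKM, 203 with median-of-ratios scaling, 283 with quantile normalization and 0 with only the groups of the contrast. With a replicate block 14 were called (11 higher, 3 lower), 13 of them among the 42, and the block gave 83 calls in the interaction with CR and 0 in that with Ex. Leaving out 1 library gave 0 to 91 calls, 0 without LF 1 and 91 without LF+Ex 3. Settings added after seeing the data gave 140 without LF 2 and HF+CR 3, and 11 without the libraries with pancreatic enzyme RNA (HF+CR 1, LF+CR 1, LF+Ex 1). All 42 genes stayed called under both scalings. The 106 calls of the interaction with CR became 65 with only the groups of the contrast, 181 with array weights, 45 to 211 without 1 library, 270 without LF 2 and HF+CR 3, and 37 without those with pancreatic enzyme RNA. The 0 calls of the interaction with Ex became 1 with only the groups of the contrast and 1 without those with pancreatic enzyme RNA, in both cases the transcript NM_001168270, and 0 to 1 without 1 library, the 1 being Alb without HF 1. These genes were named after their values were seen. Both scalings moved the median of all genes in that interaction from -0.11 to within 0.01 of 0. With a mean of at least 5 RPKM, 22 called genes kept their sign in HF+Ex against LF+Ex and 16 in HF+CR against LF+CR, since fewer of them were tested. Of the 42 called genes 1 changed sign in an alternative, Ppp2r5c at -0.0912 with transcripts summed per gene, and of 169 uncalled named genes 12 did. Of 42 list medians 23 changed sign in at least 1 alternative, among them Kupffer cell, stellate cell, female-biased, fatty acid synthesis, lipid droplet and clock genes. With rows summed, 1 of the 9 called genes with several transcripts stayed called. The cause of these changes was not tested. Depth limits the genes under about 1 RPKM, where 5 called genes had both means under 2 RPKM.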

Other observations

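Clock and stress genes held no call in HF against LF, and their values are given for their size. Noct (nocturnin), a rhythmic phosphatase of metabolism, was at 3.83, 2.99 and 6.43 RPKM in LF and 34.3, 10.8 and 19.4 RPKM in HF (1.96 ± 0.58, adjusted p = 0.121), with no overlap. Rora, a nuclear receptor of the clock, was at 10.3, 7.996 and 8.86 RPKM in LF and 5.27, 5.53 and 4.41 RPKM in HF (-0.73 ± 0.20, adjusted p = 0.0969), also without overlap and in the other direction. The median of 24 clock genes was 0.07, and the labels used here give no time of day. Ern1, the stress sensor IRE1 of the endoplasmic reticulum, was at 10.1, 14.8 and 9.93 and 6.34, 7.59 and 7.32 RPKM (-0.63 ± 0.14, adjusted p = 0.0594), and Hsph1, a heat-shock protein, at 23.4, 26.2 and 22.95 and 11.2, 15.5 and 12.7 RPKM (adjusted p = 0.2002). Of 25 heat-shock genes 5 had HF wholly below LF and 2 wholly above (20% and 8%, beside 10.9% and 7.97% of all genes), with a median of -0.20. Fbxo3, an F-box gene outside the calls, was at 30.2, 32.6 and 31.7 RPKM in LF and 21.8, 23.9 and 22.1 RPKM in HF (-0.46 ± 0.10, adjusted p = 0.0536), with nearly equal libraries within each group.

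The lists of hepatokines, of complement and coagulation proteins and of xenobiotic phase II enzymes held no call, and Cyp2b13 was the 1 call among 40 tested phase I genes. Retsat, a retinol saturase, was at 445, 616 and 413 RPKM in LF and 226, 259 and 294 RPKM in HF (-0.90 ± 0.27, adjusted p = 0.122). Por, the reductase that feeds electrons to cytochrome P450 enzymes, was at 245, 238 and 248 and 172, 108 and 106 RPKM (-0.96 ± 0.38, adjusted p = 0.227), and Ces1d, a carboxylesterase, at 371, 391 and 517 and 296, 261 and 309 RPKM (adjusted p = 0.128). These 3 had every HF library below every LF library. Mgst1, a microsomal glutathione transferase, had every HF library above every LF library, at 3853, 3694 and 3615 against 2572, 3073 and 3029.6 RPKM (adjusted p = 0.178). Timp1, an inhibitor of matrix proteases, was below the expression filter, at 0, 0 and 0 RPKM in LF and 0.0165, 0.259 and 0 RPKM in HF.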
